A study of Homo sapiens with 8 samples.

Results

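The SRC family is a group of non-receptor tyrosine kinases, and 8 genes are described here: the kinases SRC, YES1, FYN, LYN, LCK, FGR and FRK, and CSK, the kinase that switches the family off. They were chosen by name and found by gene symbol among the 58688 genes counted in RNA from LM2 cells, and all 8 were found. The LM2 line was derived from the human triple-negative breast cancer line MDA-MB-231 and spreads readily to the lung. Of 8 samples, 2 were treated with DMSO and 2 with 1 µmol/L Ponatinib for 6 h. Ponatinib is an inhibitor of ABL and of other tyrosine kinases, SRC family members among them. The other 4 samples, 1 each, came from LM2 cells made stable after 48 h with lentivirus carrying a scrambled shRNA (shCtrl), ABL1 shRNA, ABL2 shRNA or both (ABL1/ABL2 shRNA). All are LM2 cells grown in the same medium, and the cells used are 1 line.

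A SRC family kinase sits at the inner face of the plasma membrane, held closed by a phosphotyrosine in its tail that folds back onto its own SH2 domain. CSK puts that phosphate on, tyrosine phosphatases take it off, and an opened kinase phosphorylates focal adhesion and cytoskeletal proteins such as FAK, paxillin and cortactin. SRC, YES1 and FYN are made in most tissues, LYN is best known from blood cells but is also found in epithelial tumours, LCK belongs to T cells and FGR to myeloid cells, and FRK is a more distant epithelial relative. The counts are of mRNA and say nothing of the phosphorylation that sets kinase activity.

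Counts on genes summed to 7568934 in the shallowest sample (Ponatinib replicate 2) and to 13010896 in the deepest (ABL1 shRNA), so that 3 counts corresponded to 0.231 to 0.396 CPM, the count scaled to the total of its library. In the drug experiment 68 genes had at least 100 counts in all 4 samples and 0 in all shRNA samples, none of them on the lists used here, and groups were therefore compared only within each experiment. For shCtrl and ABL1 shRNA the header cell inside each file carries the other's name, and the GEO label was followed. ABL1 was 190 normalized CPM in shCtrl and 72.9 in the sample labelled ABL1 shRNA, 0.384 of its control (95% interval 0.355 to 0.414). ABL2 was 236 normalized CPM in shCtrl and 93.7 with its shRNA, a ratio of 0.396 (0.37 to 0.425). In the ABL1/ABL2 shRNA sample the ratios were 0.576 for ABL1 (0.538 to 0.617) and 0.625 for ABL2 (0.589 to 0.664), nearer to 1 than with either shRNA alone. Among the receptors that triple-negative tumours lack or have little of, PGR had 0 counts in every sample and ESR1 3 to 11. ERBB2 had 515 to 826 counts. The blood cell markers PTPRC (0 to 3 counts), CD3E (0 to 1), SPI1 (0 to 1), ITGAM (0 to 4) and CD79A (1 to 4) were at or near 0. The integrin ITGB2 (255 to 956 counts), CD14 (6 to 87) and CD34 (9 to 33), also on that list, were present.

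The 3 promoter windows printed here belong to the genes whose values stood out: FYN and CSK passed the test after Ponatinib, and FRK was furthest from its control in the knockdowns. Each runs from 250 bases before to 50 bases after a transcription start, 5′ to 3′ on the strand of the gene, from RefSeq on GRCh38.p14. Capitals mark the GC box GGGCGG, searched on both strands and so also seen as CCGCCC.
FYN, chr6:111873403-111873702, minus strand: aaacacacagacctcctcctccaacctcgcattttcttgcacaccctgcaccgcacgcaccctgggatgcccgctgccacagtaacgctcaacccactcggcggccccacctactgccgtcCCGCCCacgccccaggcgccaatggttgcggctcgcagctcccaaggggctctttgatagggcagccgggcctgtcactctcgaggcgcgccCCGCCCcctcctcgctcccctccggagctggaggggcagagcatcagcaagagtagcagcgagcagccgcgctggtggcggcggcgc
CSK, chr15:74788294-74788593, plus strand: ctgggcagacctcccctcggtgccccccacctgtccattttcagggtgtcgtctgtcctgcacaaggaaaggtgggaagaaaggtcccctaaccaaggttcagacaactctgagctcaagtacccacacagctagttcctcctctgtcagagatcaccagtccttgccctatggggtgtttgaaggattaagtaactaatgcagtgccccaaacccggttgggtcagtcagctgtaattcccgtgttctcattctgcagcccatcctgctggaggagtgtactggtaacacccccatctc
FRK, chr6:116060842-116061141, minus strand: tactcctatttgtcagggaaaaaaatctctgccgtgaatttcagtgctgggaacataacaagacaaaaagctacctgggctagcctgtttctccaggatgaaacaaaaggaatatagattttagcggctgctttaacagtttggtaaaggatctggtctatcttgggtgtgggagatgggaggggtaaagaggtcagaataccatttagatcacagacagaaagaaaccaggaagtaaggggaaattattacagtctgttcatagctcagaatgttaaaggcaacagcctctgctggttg
The FYN window, the most upstream of 4 in the table, held 2 GC boxes and 26 CpG pairs at 69.0% G+C. Of the other FYN windows, 1 held 8 GC boxes and 55 CpG pairs at 82.3% G+C, and the rest had no GC box at 38.0% and 47.3% G+C. The CSK window had no GC box, 4 CpG pairs and 54.3% G+C, and the FRK window no GC box, 2 CpG pairs and 42.3% G+C. The CSK window lies inside the gene as GENCODE draws it, whereas the FYN and FRK windows span the 5′ end of the gene. A GC box was found in 44.95% of all 35116 windows of this length in the table. The AP-1 site TGANTCA, present in 7.71% of them, and the cAMP response element TGACGTCA, in 1.85%, were searched on both strands and were found in none of these 3 windows. SRC and LYN had no entry in the table.

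The first question was which of these kinases LM2 cells make. SRC, YES1, FYN, LYN and CSK reached at least 1 CPM in every sample, FRK in all but DMSO replicate 1, and LCK and FGR had 3 counts or fewer in every sample. In the DMSO samples, the most abundant mRNA per length was CSK, at 26.7 and 25.7 CPM per kilobase of annotated exon. YES1 followed at 13.7 and 13.3, and FYN at 7.86 and 8.04. SRC, the founding member, lay at 4.22 and 4.99 and LYN at 3.75 and 4.18, all in CPM per kilobase.
The mean levels in DMSO cells were 26.2 ± 0.681 for CSK, 13.5 ± 0.287 for YES1, 7.95 ± 0.132 for FYN, 4.61 ± 0.542 for SRC and 3.97 ± 0.305 for LYN (CPM per kilobase, SD, n = 2). Neighbours in this order did not overlap between the DMSO samples, though SRC in DMSO replicate 1 (4.22) and LYN in replicate 2 (4.18) lay close together. The order of YES1 and FYN depended on the length used: per kilobase of the longest transcript FYN stood at 16.2 and YES1 at 14.9.

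**Figure D1:**
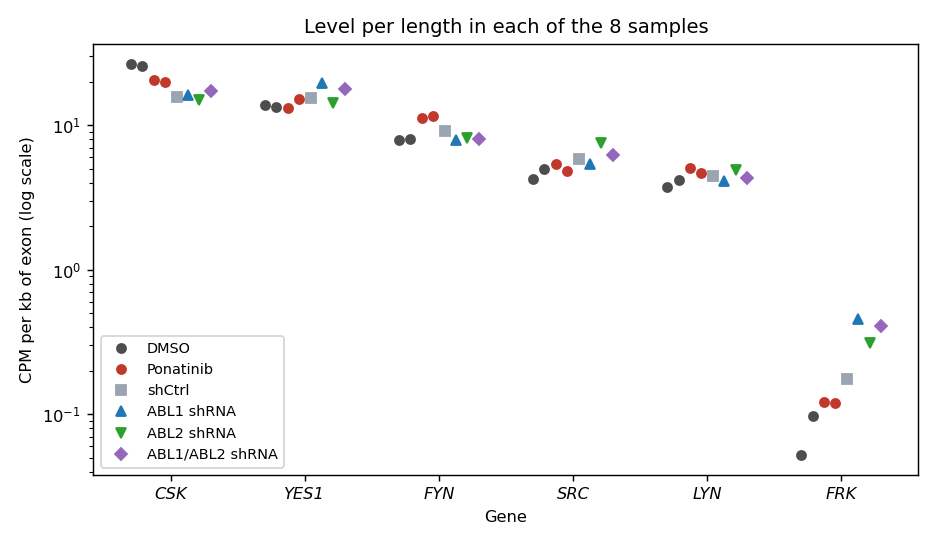
Levels of the 6 detectable genes in CPM per kilobase of exon (log axis), 1 point per sample, coloured and shaped by group. CSK, YES1, FYN, SRC and LYN lie between 3.75 and 26.7 in all samples while FRK reaches 0.454 at most, and LCK and FGR, at 3 counts or fewer, are left out.

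FRK was made at far lower levels, 0.052 and 0.0968 CPM per kilobase in the DMSO samples and 0.174 in shCtrl. Its raw counts were 8 and 13 in DMSO, 17 and 12 with Ponatinib and 27 in shCtrl. LCK, the T cell kinase, was counted 3 times with ABL1 shRNA, once in DMSO replicate 2 and 0 times in the 6 other samples. FGR was counted 2 times in shCtrl, once in Ponatinib replicate 1 and 0 times elsewhere. At this depth neither LCK nor FGR could be told from 0, and no fold was formed for them. BLK, a family member best known from B cells, had 0 to 3 counts.
In shCtrl cells the order per length was the same for the 6 detectable genes, with CSK at 15.7 CPM per kilobase, YES1 at 15.5, FYN at 9.05, SRC at 5.85 and LYN at 4.44. Per union of exons, YES1 stood above CSK with ABL1 shRNA (19.7 against 16.2) and with ABL1/ABL2 shRNA (17.7 against 17.2), and below it with ABL2 shRNA (14.3 against 14.9). Per longest transcript it was below CSK in these samples too, at 21.7 against 26.9 CPM per kilobase after ABL1 shRNA and 19.4 against 28.5 in the double knockdown.
YES1 made up 37.6% to 53.2% of the summed level per length of SRC, YES1, FYN and LYN across the 8 samples, the largest of the 4 shares in each when the union of exons was the length. With the longest transcript, FYN held the largest share in 6 samples and YES1 in 2, those with ABL1 shRNA and with both shRNAs. Per union of exons FYN held 21.2% to 32.3%, SRC 13.3% to 21.6% and LYN 11.1% to 14.6%.
Few counts fell on features that overlap or resemble YES1, and reads dropped as shared were not measured. Its exons overlap 2 antisense lncRNAs by 154 and 159 bases, with 14 and 7 counts over all samples. The pseudogene YES1P1 had 3 to 9 counts in the drug experiment and 0 in the shRNA samples.
On GRCh38 the genes lie at chr20:37344685-37406050 (SRC), chr18:721588-812546 (YES1), chr6:111660332-111873452 (FYN), chr8:55879835-56014169 (LYN), chr1:32251244-32286165 (LCK), chr1:27612064-27635185 (FGR), chr6:115931149-116060891 (FRK) and chr15:74782080-74803197 (CSK).

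Ponatinib was compared with DMSO to see how kinase inhibition for 6 h moved these mRNAs. FYN rose and CSK fell, and no other of the 6 genes that passed the filter on low counts changed by the test. FYN was 59.3 and 60.7 TMM-normalized CPM in DMSO cells and 82.4 and 84.9 with Ponatinib. Both Ponatinib samples lay above both DMSO samples, by more than replicates differed. The log2 fold change was 0.48 (SE 0.07, n = 2 per group, edgeR quasi-likelihood adjusted p = 0.000107), 1.39-fold. CSK was 124 and 119 normalized CPM in DMSO cells and 92.6 and 89.7 with Ponatinib, again with no overlap. Its log2 fold change was -0.41 (SE 0.07, edgeR adjusted p = 0.000232), 0.752 of the control.
Members called higher were thus 1 of 6 tested, beside 15.0% of all 16031 genes, and members called lower 1 of 6, beside 15.7%. With a fold over 2 and an unadjusted p under 0.05, the rule of the study's methods, 5.48% of all genes were called and none of the members. This share comes from the fit and filter used here and is not the paper's own count. The median log2 change of the 6 members tested was 0.19, and that of all genes was -0.00.

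LYN, at 23.5 and 26.2 normalized CPM in DMSO and 31.0 and 28.5 with Ponatinib, was above its control in both samples. Its log2 fold change of 0.27 (SE 0.10) did not pass (edgeR adjusted p = 0.0674, DESeq2 adjusted p = 0.306). SRC was 30.7 and 36.3 in DMSO and 37.9 and 34.0 with Ponatinib, so the groups overlapped (log2 fold change 0.11, SE 0.10, edgeR adjusted p = 0.44). YES1 also overlapped, at 71.3 and 69.2 in DMSO and 66.0 and 76.7 with Ponatinib (log2 fold change 0.01, SE 0.08, edgeR adjusted p = 0.924). FRK read 0.708 and 1.32 in DMSO and 1.62 and 1.56 with Ponatinib (log2 fold change 0.67, SE 0.41, edgeR adjusted p = 0.232), on 8 to 17 counts a sample.
ABL2, a target of the drug, fell under the same treatment (log2 fold change -1.02, edgeR adjusted p = 8.56e-08), while ABL1 rose slightly (0.19, edgeR adjusted p = 0.0287, DESeq2 adjusted p = 0.0909).

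**Figure D2:**
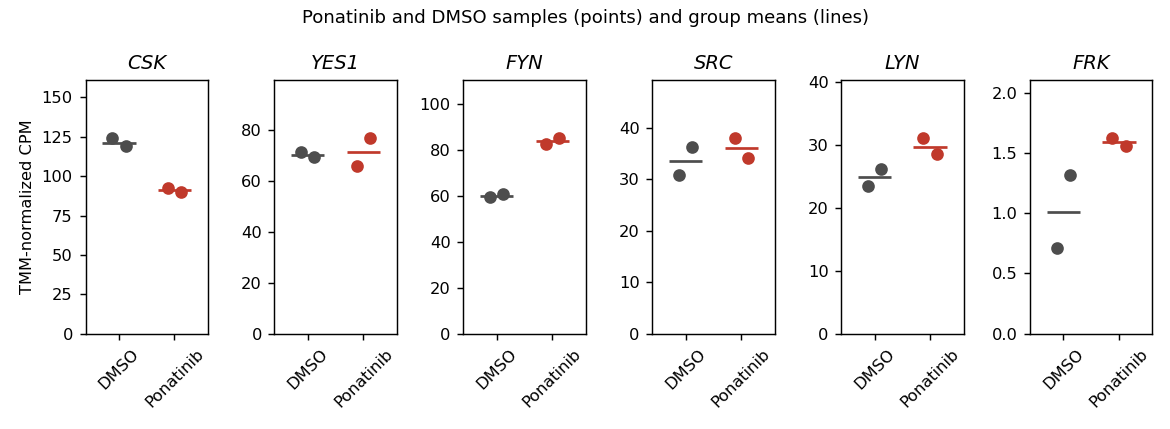
TMM-normalized CPM (linear axes from 0, different scale per panel) of 6 genes in the 2 DMSO and 2 Ponatinib samples, as points, with lines for group means. The Ponatinib points of FYN (82.4 and 84.9) and CSK (92.6 and 89.7) lie clear of the DMSO points, whereas SRC and YES1 overlap.

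CSK was set against the kinases it restrains by dividing its level per length by the sum of SRC, YES1, FYN and LYN. The ratio was 0.903 and 0.842 in the DMSO samples and 0.592 and 0.55 in the Ponatinib samples, which did not overlap. The means were 0.872 ± 0.0427 and 0.571 ± 0.0298 (SD, n = 2), a ratio of 0.655, or 0.632 with the longest transcript as length. This index is made from the same CSK and FYN values as above and was not tested separately. Within the 4 kinases FYN moved from 26.6% and 26.3% to 32.3% and 31.9% of the sum. In the shRNA experiment CSK per 4 kinases was 0.451 in the control, 0.437 and 0.427 after ABL1 and ABL2 shRNA, and 0.475 in the double knockdown.

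**Figure D3:**
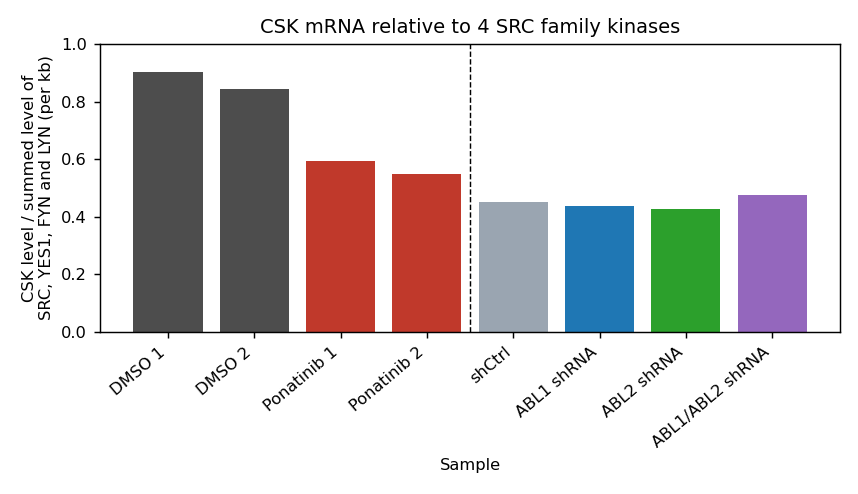
CSK level per kilobase divided by the summed level per kilobase of SRC, YES1, FYN and LYN, 1 bar per sample, with a dashed line between the drug and the shRNA experiment. The 2 Ponatinib bars (0.592 and 0.55) are lower than the 2 DMSO bars (0.903 and 0.842), and the shRNA bars lie between 0.427 and 0.475.

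Each knockdown is 1 sample against the same single shCtrl sample, so none of these differences has a replicate check, and the 95% intervals cover counting error only. FRK was furthest from its control. Against 2.38 normalized CPM in shCtrl (27 counts), the ABL1 shRNA sample had 6.1 (79 counts), the ABL2 shRNA sample 4.14 (52 counts) and the double knockdown 5.35 (65 counts). All 3 knockdown samples lay above shCtrl. The ratios were 2.57 (1.64 to 4.13), 1.74 (1.07 to 2.88) and 2.25 (1.42 to 3.67), past 2-fold with ABL1 shRNA and with both.
FRK was the only member past 2-fold, so 1 of 6 was called for ABL1, 0 for ABL2 and 1 for the double knockdown. Of all 16172 genes, 7.19%, 6.51% and 6.56% were past 2-fold in these 3 comparisons. Among the 4644 genes with 10 to 99 counts in shCtrl, as FRK has, 4.76%, 4.84% and 4.35% were past 2-fold upwards. Blood cell markers also differed between these samples: their summed level was 28.2 CPM in shCtrl and 83.3, 36.5 and 58.1 in the ABL1, ABL2 and double knockdown samples, mostly ITGB2 (264, 956, 356 and 573 counts). Their part in the FRK values was not tested.

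FYN, which rose with Ponatinib, was lower than shCtrl in all 3 knockdowns. The control had 68.6 normalized CPM, and the ABL1, ABL2 and double knockdown samples had 58.5, 59.8 and 59.0. These are ratios of 0.854 (0.771 to 0.945), 0.873 (0.789 to 0.966) and 0.86 (0.776 to 0.953), each with an interval below 1 and each resting on the same control. Intervals of counting error alone excluded 1 for many genes. Of the substrates, 24 passed the filter. Their intervals lay above 1 for 5, 5 and 7 and below 1 for 16, 12 and 14, in the same order. The share over all genes was not computed.
YES1 differed in direction between the knockdowns. From 80.7 normalized CPM it stood at 101 after ABL1 shRNA (ratio 1.25, 1.15 to 1.36), at 72.3 after ABL2 shRNA (0.896, 0.817 to 0.984) and at 89.2 in the double knockdown (1.11, 1.01 to 1.21). SRC, at 42.7 in the control, stood at 38.8 after ABL1 shRNA (0.91, 0.802 to 1.03), at 53.2 after ABL2 shRNA (1.25, 1.11 to 1.4) and at 43.8 in the double knockdown (1.03, 0.906 to 1.16). So the interval lay above 1 for YES1 with ABL1 shRNA and in the double knockdown, and for SRC with ABL2 shRNA. It lay below 1 for YES1 with ABL2 shRNA. With 1 sample a group, the spread between samples could not be measured, so these directions may not repeat.
For LYN and CSK, every interval included 1. LYN had ratios of 0.908, 1.07 and 0.936 and CSK of 1.01, 0.918 and 1.06, in the order ABL1 shRNA, ABL2 shRNA and both. The lowest bound of the 3 CSK intervals, which cover counting error only, was 0.834.

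**Figure D4:**
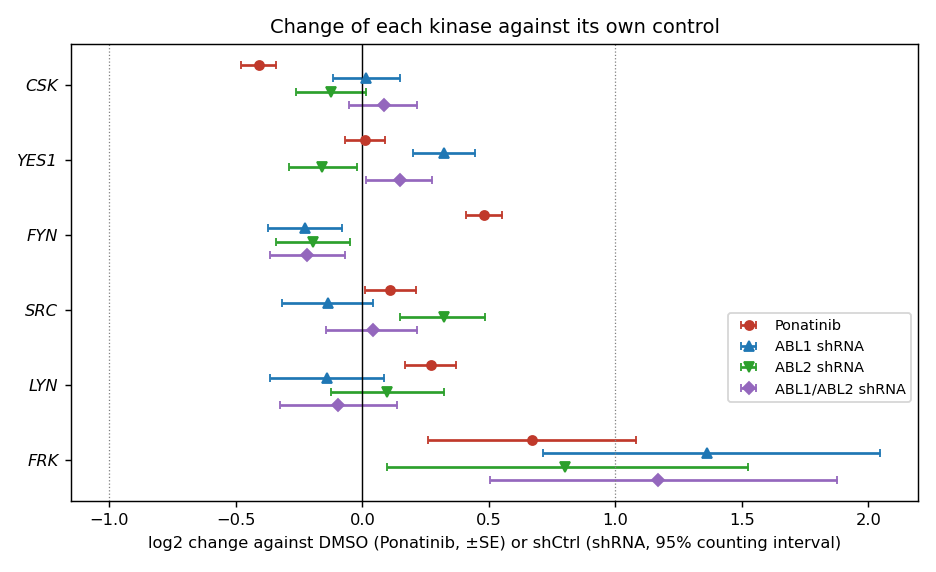
Log2 change of 6 genes against their own control: Ponatinib against DMSO (circles, fitted value ± SE, n = 2 per group) and each shRNA against shCtrl (triangles and diamonds, log2 of the ratio of counts with its 95% counting interval, n = 1). Dotted lines mark 2-fold. FYN lies right of 0 with Ponatinib (0.48) and left of 0 in the 3 knockdowns, and FRK lies right of 0 in all 4. FRK did not pass the test with Ponatinib, on 8 to 17 counts, and its knockdown values share 1 control of 27 counts.

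The genes that act on the family were described by lists. Of 10 tyrosine phosphatases, 9 were tested and 1 was called higher and 3 lower with Ponatinib, beside 15.0% and 15.7% of all genes. PTPRE, a receptor phosphatase that can remove the inhibitory tail phosphate, went from 95.4 and 94.5 to 47.3 and 55.4 normalized CPM (log2 change -0.90, edgeR adjusted p = 7.87e-07). PTPN12 and PTPN1, the latter the phosphatase of the endoplasmic reticulum, fell by 0.47 and 0.45 on the log2 scale. PTPN6, the blood cell phosphatase, was called higher at 0.99 (edgeR adjusted p = 0.0498) from 10 to 21 counts a sample, a call that a fit with the replicate block did not keep. PTPRA, which also opens SRC, moved by 0.12 on that scale (edgeR adjusted p = 0.211).

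Of 11 brakes and adaptors of the family, 8 were tested, with 3 called higher and 1 lower, beside the same 15.0% and 15.7%. CBLB, a ubiquitin ligase that targets activated tyrosine kinases, went from 12.3 and 12.2 to 24.8 and 26.4 normalized CPM (log2 fold change 1.06, edgeR adjusted p = 8.39e-06). UNC119, a lipid-binding chaperone of these kinases, rose by 0.51 and TOM1L1 by 0.39 on the log2 scale, and DOK1, an adaptor that restrains signalling, fell by 0.52. With DESeq2, TOM1L1 and DOK1 missed the threshold (adjusted p = 0.0764 and 0.118). PAG1, the membrane anchor of CSK, was 88.0 and 80.3 in DMSO and 68.5 and 81.2 with Ponatinib, which overlap.
In the knockdowns CBLB was lower: 63.1 normalized CPM in the control against 27.8 (ratio 0.441), 40.8 (0.647) and 26.5 (0.42) in the ABL1, ABL2 and double knockdown samples. SH2D2A (10 counts in shCtrl) was past 2-fold upwards with ABL1 shRNA and with both, and SRCIN1 (15 counts) with ABL2 shRNA. Of the phosphatases only PTPN22 was past 2-fold, with ABL1 shRNA, on 19 and 8 counts.

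Of 25 substrates, 24 were tested. With Ponatinib 11 were called lower and 3 higher, beside 15.7% and 15.0% of all genes, and the median log2 change was -0.15, beside -0.00 for all genes. Both counts moved in most fits that left out 1 sample, which keep 1 sample in a group. The share of all genes called in those fits was not computed. With DESeq2, 8 substrates were called lower and 1 higher. CDCP1, a membrane glycoprotein phosphorylated by SRC, went from 292 and 291 to 143 and 156 normalized CPM (log2 fold change -0.97, edgeR adjusted p = 2.83e-08). ASAP1, a regulator of ARF GTPases, fell by 0.64, and PXN, paxillin of focal adhesions, fell by 0.59. EPS8, an actin regulator, rose by 0.74 on the log2 scale.
The shRNA samples did not show the same for CDCP1, which stood at 493 normalized CPM in shCtrl and at 682, 773 and 718 in the knockdowns. ASAP1 was 131 in shCtrl and 64.9, 84.1 and 66.9 in the knockdowns, and NEDD9, a scaffold of the BCAR1 type, was 18.0 in shCtrl and 6.79, 4.7 and 5.76. Past 2-fold were NEDD9 in all 3 and ASAP1 with ABL1 shRNA, where its ratio was 0.494.

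**Figure D5:**
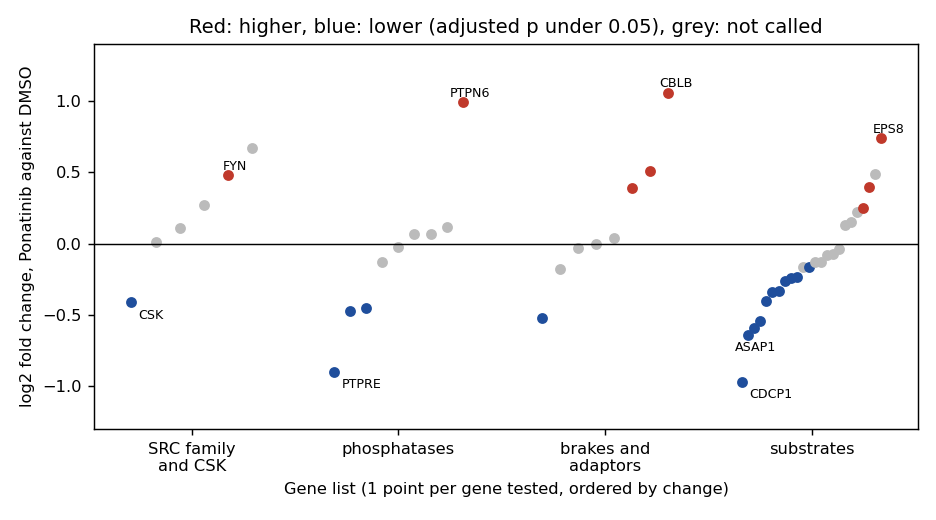
Log2 fold change with Ponatinib for each tested gene of 4 lists, ordered within a list. Red points passed an edgeR adjusted p of 0.05 as higher, blue points as lower and grey points did not pass. Of the substrates, 11 are blue and 3 red, and in the family itself CSK is blue and FYN red.

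Across the 8 samples, centred on the mean of each experiment, the genes with the most similar log2 CPM among 11535 protein-coding genes were named for each well-expressed member. FYN went with SH3BP2 (Pearson r = 0.999) and TNKS1BP1 (0.993), CSK with ALG3 (0.995) and IP6K1 (0.993), and YES1 with ZNF106 (0.989) and FMN1 (0.98). LYN went with LRRFIP2 (0.989) and TCEA3 (0.985), and SRC with CAMK1 (0.979) and PPP1R37 (0.969). These values describe 8 points, the experiments differ in depth and samples of 1 experiment share a control, and the 100th gene in each order still had an r of 0.862 or more.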

How the data were processed

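RNA-seq of 8 LM2 samples was analysed. The authors mapped reads with TopHat to hg38 and counted them per gene with HTSeq 0.6.0, according to the submitters' processing notes, and deposited raw counts per gene without normalization; versions of the other tools and the strand setting are not given in the sources used here. The shRNA files end in rows of reads without a single gene, 15.7% to 16.0% of all reads, which were left out. Gene symbols matched 93.4% of IDs.

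The test was that of edgeR 4.0.16 under R 4.3.3 (TMM, filterByExpr, quasi-likelihood fit) on 2 DMSO and 2 Ponatinib samples, called at a Benjamini-Hochberg adjusted p of 0.05 over all genes. The shRNA samples are 1 per group, so ratios of TMM-normalized counts with exact binomial intervals were given, and past 2-fold counted as called. Past 2-fold was judged on the log2 ratio of normalized CPM with a prior count of 2, which draws ratios of low counts towards 1. Nothing states that samples of a group are separate cultures, so p-values measure the spread between these samples, which may be technical. Levels of different genes used the summed exon length of GENCODE release 44. DESeq2 1.42.0 was an alternative. Scripts were tested on simulated data.

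The members and lists were chosen with earlier results of these data known. Named from the lists were the up to 4 genes with the largest change among those called with Ponatinib and the up to 3 past 2-fold in a knockdown with at least 50 counts. BLK, PTPRA, PAG1, PTPN22, SH2D2A and SRCIN1 were named outside this rule, after their values were seen.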

Additional observations from a re-analysis of the deposited data

How the results depend on the processing

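FYN and CSK kept their direction and an adjusted p under 0.05 in 12 alternative fits of Ponatinib against DMSO, and lost their call under the study's rule of a fold over 2, with log2 changes of 0.46 to 0.52 and -0.44 to -0.37. Equal repeat numbers did not deviate together (r = 0.0169 over 10311 genes, which are not independent), and a fit with the number as a replicate block gave 1 member higher, 1 lower and 0 phosphatases higher in place of 1. LYN passed with library size only (0.311) and without Ponatinib replicate 2 (0.318), so that 2 members were higher. Leaving out 1 sample gave 1 to 2 members higher, 0 phosphatases higher, 0 to 2 brakes and adaptors lower, 1 to 6 substrates higher and 6 to 13 lower, with SRC at -0.007 to 0.23 and YES1 at -0.0943 to 0.14. YES1 was -0.0045 without DMSO replicate 2 and -0.004 in a fit of all 8 samples, and SRC was -0.007 without DMSO replicate 1. In these fits the lone sample is assumed to vary like the other group.

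DESeq2 gave 0 phosphatases higher (PTPN6 had no adjusted p there), 0 brakes and adaptors lower and 1 substrate higher. Library size only gave 5 substrates higher. No filter, and a fit of all 8 samples, each gave 0 phosphatases higher. The study's rule of a fold over 2 gave 0 members, 0 phosphatases and 0 substrates in either direction and 1 brake or adaptor higher and 0 lower. In the knockdowns, calls by an adjusted p in a fit of all 8 samples were 2 members, 4 phosphatases and 9 substrates for ABL1 shRNA. For ABL2 shRNA they were 3 phosphatases, 2 brakes and adaptors and 13 substrates. For both they were 1 member (FRK), 4 phosphatases and 13 substrates. The spread in that fit comes wholly from the DMSO and Ponatinib pairs, another experiment, so its calls do not replace repeats of the knockdowns. The share of all genes called in that fit was not computed. Past 1.5-fold were 4 phosphatases with ABL1 shRNA. With ABL2 shRNA they were 1 member, 5 brakes and adaptors and 8 substrates, and with both 2 phosphatases and 5 substrates. In the knockdown alternatives described here, a list not named had the main count or one within 1.5 times of it. FRK, for example, stayed past 1.5-fold with ABL1 shRNA and with both. The share of all genes past 1.5-fold was not computed. Without a filter, members past 2-fold numbered 3, 1 and 2, which adds LCK and FGR on 3 counts or fewer, with 1 phosphatase for ABL2 shRNA and 1 related kinase for both. A minimum of 10 counts gave 0 phosphatases and library size only 1 substrate for ABL1 shRNA. The longest transcript as length moved 2 members in rank in DMSO. Its use for shares, for CSK per 4 kinases and for YES1 against CSK was chosen after seeing the data. Other causes were not tested. Depth limits FRK, at 8 to 79 counts, and LCK and FGR, at 3 or fewer.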
